A study of Mus musculus with 48 samples.

Results

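Lymphatic endothelial cells (LECs) of the heart from mice that received angiotensin II together with VEGFCc156s were compared with the same cells from control mice. The comparison uses 7 of the 48 libraries of the series, 3 of the combined group (angII+VEGFC) and 4 of the control group (ctrl), chosen by their labels and not by any measured value. All mice were male C57BL/6 mice carrying the Prox1-eGFP reporter, a knock-in in which the fluorescent protein is read from the Prox1 transcript. Control mice carried a subcutaneous minipump with saline and bovine serum albumin, mice of the angII group one with angiotensin II and the same albumin, and mice of the angII+VEGFC group one with angiotensin II and the recombinant human growth factor mutant. Cells were isolated 5 to 6 weeks after the pumps were implanted. A heart LEC library holds the cells of 1 mouse that were sorted as live, with CD31 and eGFP and without the leukocyte marker CD45.2. The control libraries came from mouse 1 (batch 1, labelled as 9 months old), mouse 5 (batch 2, 8 months), mouse 9 (batch 1, 16 months) and mouse 11 (batch 2, 16 months). The combined libraries came from mouse 2 (batch 2, 15 months), mouse 6 (batch 1, 8 months) and mouse 8 (batch 2, 8 months), so that batch 1 holds a single library of the combined group. The labels give these ages in months, whereas the methods of the study give the age of the mice in weeks, and the labels' numbers were used as they stand. Values below are given in the order of mice 1, 5, 9 and 11 for ctrl and of mice 2, 6 and 8 for angII+VEGFC. The 5 heart LEC libraries of the angII group served for the estimate of the spread and, where stated, for values set beside the comparison.

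Lymphatic endothelium forms the blind-ended capillaries and valved collectors that return tissue fluid and leukocytes to the circulation, and in the heart it drains the myocardium. Its identity is set by the transcription factor Prox1, and its growth by VEGF-C and VEGF-D through the receptor VEGFR3, which Flt4 encodes. The Cys156Ser mutant of VEGF-C activates VEGFR3 and not VEGFR2. Angiotensin II is the effector peptide of the renin-angiotensin system and raises blood pressure, stimulates fibroblasts and remodels the matrix of the heart. LECs also present antigen at a low level, with class I molecules on all of them and class II molecules that they make themselves or take over from dendritic cells.

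The sorted cells carried the defining markers of lymphatic endothelium. Prox1, Lyve1, a hyaluronan receptor, and Flt4 summed to 1539 to 2459.7 TPM, the length-corrected share of a library's transcripts, in the 12 heart LEC libraries, against 70.3 to 128 TPM in the 12 heart blood endothelial cell (BEC) libraries. Markers of blood endothelium were not absent, with a sum of 1724 to 3917 TPM in ctrl and 2416 to 2683 TPM in angII+VEGFC heart LECs, against 17915 to 28629 TPM in heart BECs. Between 16131 and 24086 genes reached 1 TPM in ctrl, and between 16756 and 18884 in angII+VEGFC. The library of control mouse 1 was the one with the most genes of the 7 and stood 2.28 SD from the mean of the 12 on the first principal component, which held 27.7% of the variance. The library of control mouse 9, with the fewest genes of the 7, stood 2.45 SD from it on the second component, with 13.7%. The deposited values are TPM, from which the number of reads behind a library cannot be read, so the depth is unknown.

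No gene differed between angII+VEGFC and ctrl heart LECs after adjustment over the 26803 genes tested. The test was limma on log2(TPM + 1) with age and batch as covariates and Benjamini-Hochberg adjustment at 0.05, and the called share was 0%. The same fit was run on simulated data with the means and SDs of these genes. It called 5 of 200 genes raised by 1 log2 unit and 77 of 200 raised by 2. A gene not called here is therefore not shown to be unchanged. The smallest adjusted p was 0.373, for H2-Aa. Without adjustment, 463 genes (1.73%) were higher and 862 (3.22%) lower at p under 0.05, together 4.94%. Without control mouse 1, 0 genes were called and 1299 had an unadjusted p under 0.05, and without control mouse 9 these numbers were 0 and 1660. The split depended on the scaling, with 785 higher and 732 lower after quantile normalization. In 489 genes (1.82%) every angII+VEGFC library lay above every ctrl library, and in 573 (2.14%) every one lay below. The median log2 fold change over all genes was -0.13, and 40.3% of genes had a positive one. Quantile normalization moved this median to 0.0059, so lists are read against it. All fold changes are on the log2(TPM + 1) scale, which understates those of genes at low TPM. Because nothing passed the adjusted threshold, the genes named from here on are described by their level in each library and by whether the groups overlap, and none of them is called changed.

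**Figure D1:**
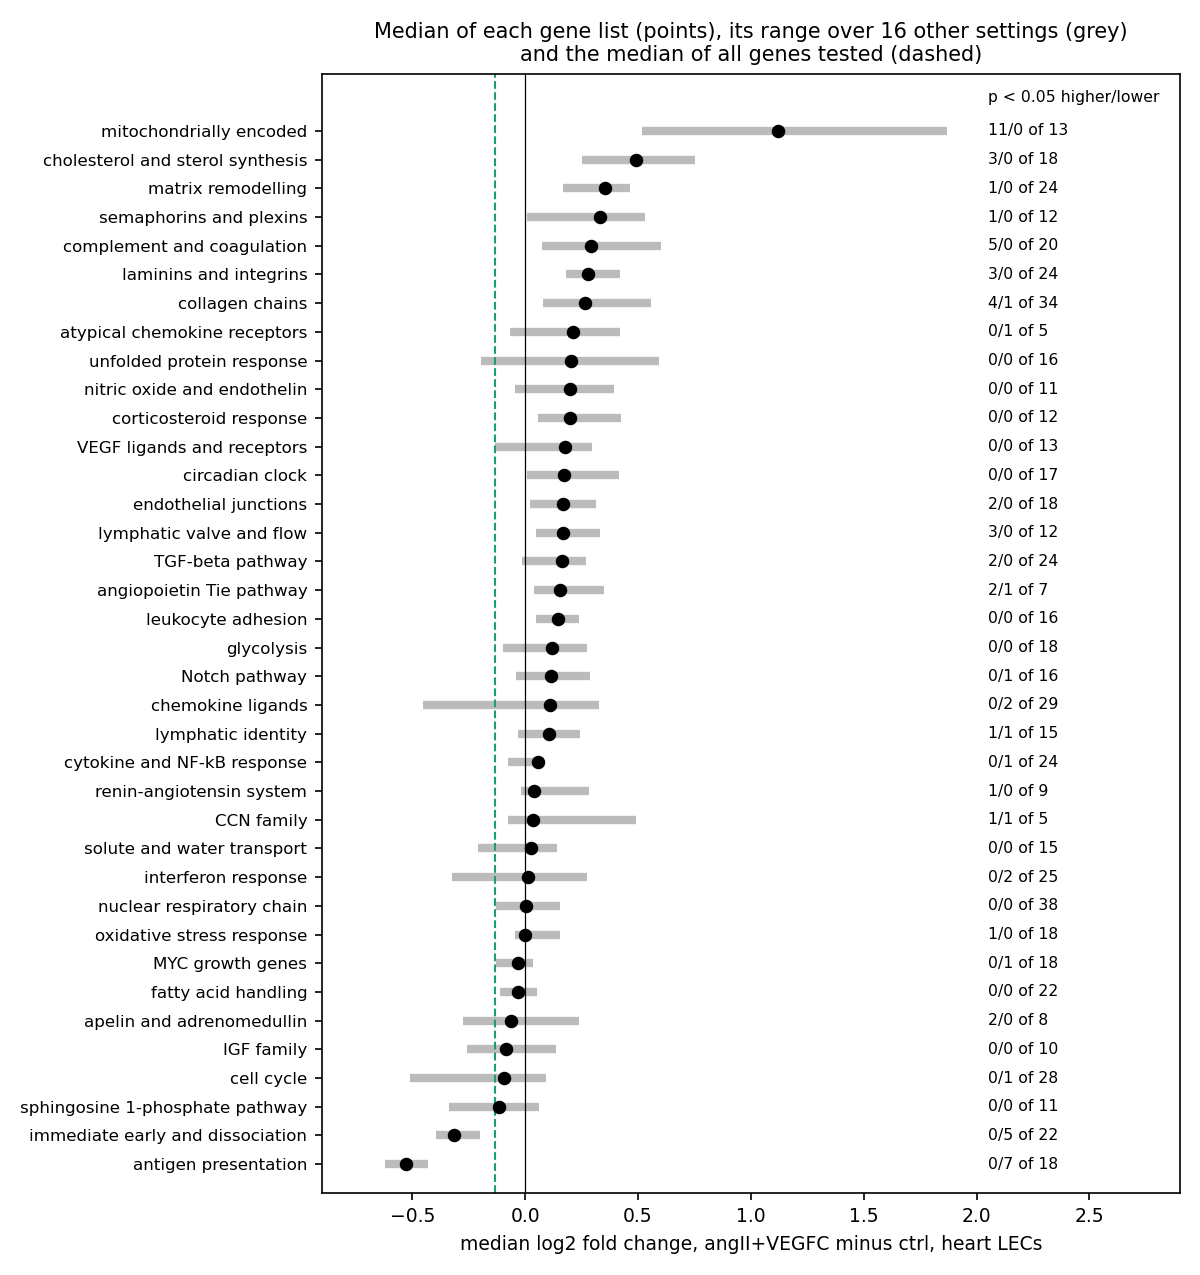
Each row is a gene list, its point the median log2 fold change of angII+VEGFC minus ctrl in heart LECs (horizontal axis), with the grey bar from the lowest to the highest median over 16 other settings and the dashed line at the median of all genes tested. The numbers on the right count members higher and lower at unadjusted p under 0.05. The antigen presentation and the immediate early and dissociation lists lie lowest, at -0.53 and -0.32, and the mitochondrially encoded list highest, at 1.12.

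Genes of antigen presentation mostly lay lower in the combined group. Of 18 listed genes, all tested, 16 were lower than in ctrl and 2 higher, and the median log2 fold change was -0.53, against -0.13 for all genes. For 7 of the 18 the unadjusted p was under 0.05 with a lower level, and for 7 the groups did not overlap, where 3.22% and 2.14% of all genes did so in that direction. None passed the adjusted threshold. The gene lists and their members were chosen with earlier results of these data known. These counts beside all genes therefore describe the list and are no independent test. The same limit holds for every list set beside all genes below. Where a list below is given without them, the shares over all genes are 1.73% higher and 3.22% lower at an unadjusted p under 0.05.

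Class II molecules hold peptides of proteins taken up from outside the cell and show them to CD4 T cells. H2-Aa (chr17:34282744-34287823, minus strand, GRCm38) encodes the alpha chain of the class II molecule I-A. Its level was 27.5, 15.8, 45.0 and 12.2 TPM in the 4 ctrl libraries and 0, 6.77 and 2.28 TPM in the 3 angII+VEGFC libraries. Every combined library was below every control library, and the log2 fold change was -2.90 (SE 0.47, limma adjusted p 0.373). It was -2.22 within batch 1 and -3.04 within batch 2. H2-Ab1 (chr17:34257689-34269419, plus strand) encodes the beta chain that pairs with it and stood at 32.0, 25.2, 82.2 and 58.5 TPM in ctrl and 3.83, 9.72 and 7.75 TPM in angII+VEGFC. The groups did not overlap here either, and the difference was -2.35 on the log2 scale (SE 0.49, limma adjusted p 0.915).

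H2-DMa and H2-DMb1 encode chains of H2-DM, the class II-like protein that exchanges peptides in the endosome before the molecule travels to the surface. H2-DMa (chr17:34119541-34139101, plus strand) had 5.19, 6.20, 6.50 and 15.6 TPM in ctrl and 0, 0 and 0.897 TPM in angII+VEGFC. H2-DMb1 (chr17:34153072-34160230, plus strand), which is not in the list but was named by rank, had 13.5, 3.02, 6.60 and 10.6 TPM in ctrl and 0.132, 0 and 0.306 TPM in angII+VEGFC. Both were near 0 in all combined libraries and at several TPM in all controls, with log2 fold changes of -2.89 (SE 0.75) and -2.73 (SE 0.67) and a limma adjusted p of 0.915 for each. H2-DMb1 has a near-identical neighbour, H2-DMb2, and reads can be split between them. H2-Aa, H2-Ab1, H2-DMa and H2-DMb1 kept their direction and an unadjusted p under 0.05 in every alternative setting run in which they were tested, 16 for the first pair and 15 for the second.

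Among other genes of the class II pathway, Cd74 and H2-Eb1 lay in the same direction with overlapping groups, and Ciita did not lie lower. Cd74, the invariant chain that occupies the peptide groove until H2-DM acts, was at 32.6, 12.3, 50.2 and 79.9 TPM in ctrl and 10.3, 6.75 and 27.6 TPM in angII+VEGFC. H2-Eb1, the beta chain of the class II molecule I-E, was at 18.7, 3.98, 0.546 and 11.4 TPM in ctrl and 5.28, 1.41 and 2.52 TPM in angII+VEGFC. Their log2 fold changes were -1.28 and -0.91, neither at an unadjusted p under 0.05. Ciita, the transactivator on which class II transcription depends, was low in every library, at 0.152, 0.170, 0.664 and 3.43 TPM in ctrl and 2.96, 0 and 0.598 TPM in angII+VEGFC. It did not separate the groups, and its log2 fold change was 0.17.

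The class I pathway, which shows peptides from inside the cell to CD8 T cells, had members on both sides. The 4 class I pathway genes that follow were chosen after their values were seen, because their groups did not overlap. H2-K1 encodes a class I heavy chain and stood at 1809.5, 1307, 2286 and 1525 TPM in ctrl and 1099, 1103 and 919.6 TPM in angII+VEGFC (log2 fold change -0.59, SE 0.21). H2-D1, another heavy chain, stood at 2818, 2550.0, 3493 and 2875 TPM in ctrl and 2025, 2306 and 1991 TPM in angII+VEGFC (-0.41, SE 0.16). The light chain they share, B2m, was at 2724, 2305, 3890.5 and 2987 TPM in ctrl and 2061, 2101 and 1729 TPM in angII+VEGFC (-0.49, SE 0.20). The immunoproteasome subunit Psmb8, which cuts the peptides, was at 182, 123, 278 and 135 TPM in ctrl and 78.0, 89.1 and 109 TPM in angII+VEGFC (-0.81, SE 0.29). In each of the 4 the lowest control lay above the highest combined library, by a small margin for H2-D1, B2m and Psmb8. Tap1 and Tap2, which carry peptides into the endoplasmic reticulum, Tapbp, which loads them, the immunoproteasome subunit Psmb9 and the class I heavy chain H2-T23 had overlapping groups, with log2 fold changes of -0.45 to -0.0089 and none at an unadjusted p under 0.05. Class I heavy chains are near-identical paralogs, so reads may be split among them. The highest member was Nlrc5, the transactivator of class I genes, at 0.617, 3.43, 3.79 and 1.36 TPM in ctrl and 12.5, 1.94 and 5.99 TPM in angII+VEGFC (log2 fold change 1.06), with overlapping groups.

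The median of the antigen presentation list stayed between -0.62 and -0.43 over the 16 alternatives, and was -0.76 within batch 1 and -0.45 within batch 2. The count of members lower at an unadjusted p under 0.05 was 4 without mouse 2 of the combined group, 7 without control mouse 1, 5 without control mouse 9, and 4 to 9 over all alternatives.

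**Figure D2:**
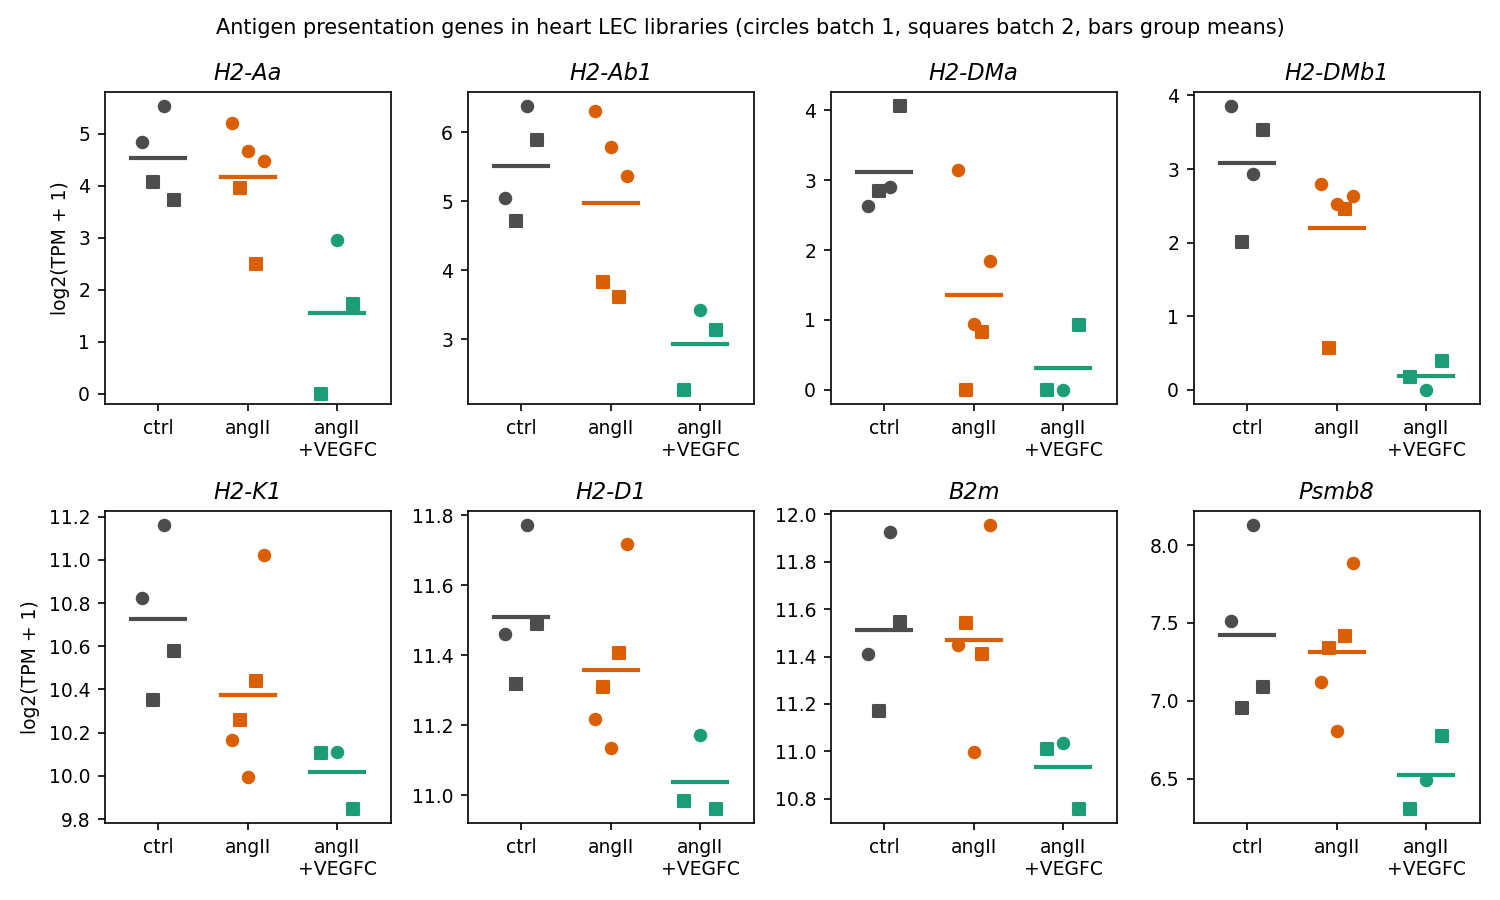
Levels of 8 antigen presentation genes in each heart LEC library, as log2(TPM + 1) on axes that differ between panels, for ctrl (4 mice), angII (5 mice) and angII+VEGFC (3 mice), with bars at group means. The 8 genes shown are ones whose angII+VEGFC and ctrl groups did not overlap, so the 3 combined libraries lie below the 4 control libraries in all 8 panels by choice. The angII libraries overlap the controls. Members with overlapping groups, such as Cd74, H2-Eb1, Tap1, Tap2, Ciita and Nlrc5, are not shown.

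Promoters of this pathway share short elements, of which the Y box carries the core GATTGG. Windows of 60 bases that hold it are shown for class II and class I pathway genes, because genes of this pathway lay low together. They come from RefSeq promoters on GRCm38.p6, are written 5′ to 3′ on the gene's own strand, and carry the motif, or its reverse complement CCAATC, in capitals. The windows are at chr17:34287853-34287912 for H2-Aa (minus strand), chr17:34153089-34153148 for H2-DMb1, chr17:34305767-34305826 for H2-Eb1, chr17:35263001-35263060 for H2-D1 and chr2:122147593-122147652 for B2m (plus strand).
H2-Aa promoter: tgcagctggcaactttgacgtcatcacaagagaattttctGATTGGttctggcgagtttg
H2-DMb1 promoter: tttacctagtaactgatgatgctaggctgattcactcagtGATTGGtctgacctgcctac
H2-Eb1 promoter: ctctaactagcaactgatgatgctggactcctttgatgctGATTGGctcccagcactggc
H2-D1 promoter: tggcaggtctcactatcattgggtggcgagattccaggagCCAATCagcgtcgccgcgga
B2m promoter: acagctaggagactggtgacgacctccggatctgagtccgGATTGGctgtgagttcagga

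In these windows the motif lay 49, 62, 60, 53 and 54 bases before the start of transcription, in the order listed. H2-Aa, H2-DMb1, H2-Eb1 and B2m carried it as given and H2-D1 as the reverse complement. Outside its window, H2-Eb1 also had the reverse complement 35 bases before the start. All these starts are those of the RefSeq promoters. The position given earlier for the H2-DMb1 gene comes from GENCODE and begins before the window, so the annotated starts differ. The genes printed are a selection, and the position was not common to all genes with the motif. It lay 222 bases before the start in Tap1, 199 in H2-DMa, 52 in H2-T23 and 9 in Psmb9. In H2-K1 it lay 6 bases before the start of a promoter and after the start of another. Searched on both strands from 250 bases before to 50 after the start, the motif was in 10 of the 14 antigen presentation genes with a promoter in the table, of 19 looked for. It was in 5292 of 32851 promoters, 16.1%, and in 18.2% of genes. A match of 6 letters describes the window and does not mark a bound site.

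The lower class II levels were set beside the markers of leukocytes, among them macrophages and B cells, which can express class II strongly. The summed level of 6 class II genes (H2-Aa, H2-Ab1, H2-Eb1, Cd74, H2-DMa and H2-DMb1) was 129, 66.5, 191 and 188 TPM in ctrl and 19.6, 24.6 and 41.3 TPM in angII+VEGFC. These 6 genes were picked with their values known, so the separation of their sum belongs in part to the choice and was not tested. Macrophage markers summed to 86.0, 9.19, 91.6 and 27.3 TPM in ctrl and 330.1, 12.3 and 108 TPM in angII+VEGFC. Mouse 2 thus had the highest macrophage sum of the 12 heart LEC libraries and the lowest class II sum. Of 10 macrophage markers, 8 passed the filter, 6 of them higher and 2 lower in the combined group. C1qc, a complement subunit made by macrophages, was listed at 0 TPM in 3 controls and at 2.34 TPM in mouse 11, against 42.3, 4.04 and 8.26 TPM in the combined group. B cell markers summed to 1.96 to 14.5 TPM in ctrl and 2.54 to 5.51 TPM in angII+VEGFC, and T and NK cell markers to 14.2 to 48.7 and 2.65 to 14.3 TPM. Of 8 T and NK cell markers 5 passed the filter and all 5 were lower, but none at an unadjusted p under 0.05. The sum differed with an exact two-sided permutation p of 0.114 (0.571 adjusted over 15 library measures), where 3 libraries against 4 cannot give less than 0.0571. Neutrophil markers summed to 3.09 to 5.47 TPM in ctrl and 1.01 to 1.45 TPM in angII+VEGFC, without overlap (exact two-sided permutation p 0.0571, 0.571 adjusted). These sums are low, and of 5 neutrophil markers 2 passed the filter, both lower and neither at an unadjusted p under 0.05. A list of dendritic cell markers was not used, and the part of other cells in the class II difference was not tested beyond these values. In bulk libraries, fewer cells of a type and less RNA per cell cannot be told apart.

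**Figure D3:**
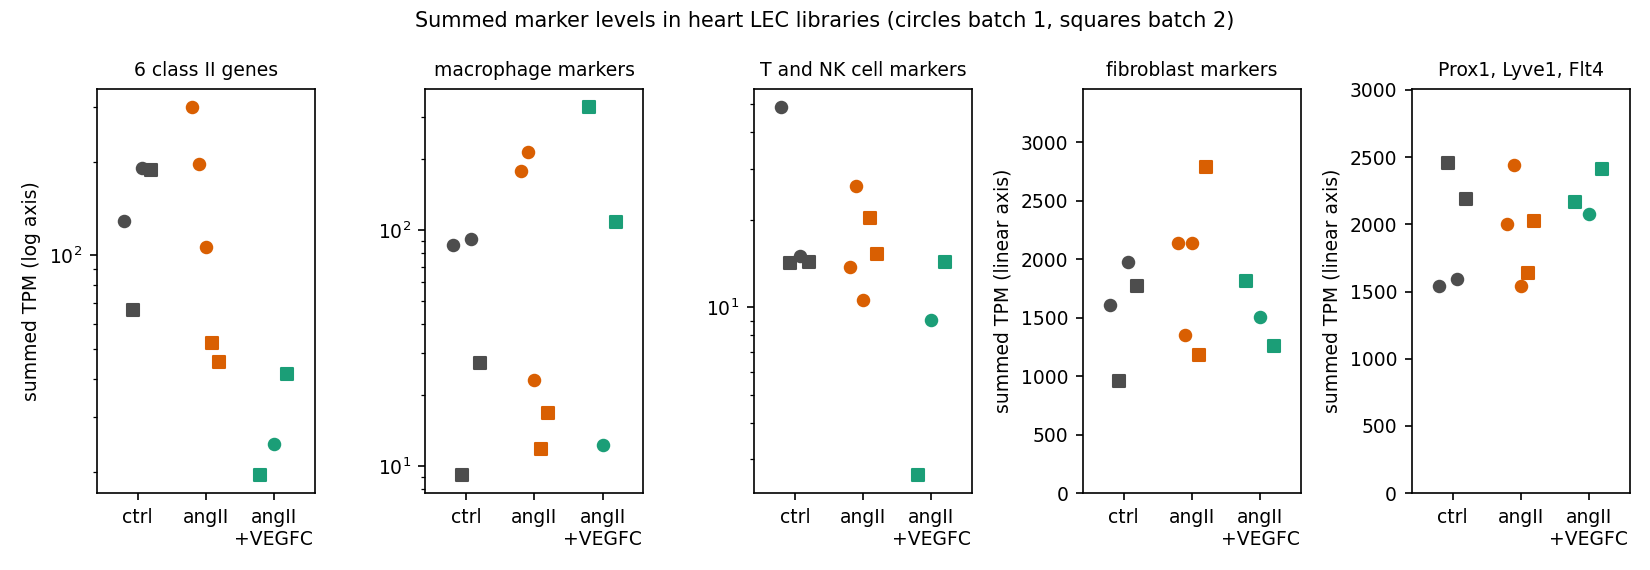
Summed TPM of 6 class II genes, of macrophage, of T and NK cell and of fibroblast markers, and of Prox1, Lyve1 and Flt4, in each heart LEC library of ctrl (4), angII (5) and angII+VEGFC (3). The first 3 panels have a log axis and the last 2 a linear axis from 0. The 6 class II genes were picked with their values known, so their sum was not tested. The 3 combined libraries have the 3 lowest class II sums, while 1 of them has the highest macrophage sum, and the fibroblast and lymphatic sums overlap between the groups.

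The same contrast was examined in the 2 other endothelial populations by an interaction, the log2 fold change of angII+VEGFC minus ctrl in heart LECs less that in heart BECs or in diaphragm LECs. No gene passed the adjusted threshold in either interaction, and 3.73% and 5.26% of 32754 genes had an unadjusted p under 0.05. In heart BECs, H2-Aa was at 30.5 ± 11.5 TPM in ctrl (SD, n = 4) and 15.4 ± 2.62 TPM in angII+VEGFC (SD, n = 3). In diaphragm LECs it ranged from 1.59 to 82.9 TPM in ctrl and from 2.41 to 25.1 TPM in angII+VEGFC. The class II genes were thus not shown to respond differently in heart LECs. For H2-Aa the interaction was -2.10 (SE 1.10) against heart BECs and -2.58 (SE 1.10) against diaphragm LECs, with limma adjusted p values of 1.00 and 0.907. For H2-DMb1 it was -1.98 (SE 0.75) and -2.51 (SE 0.75), with limma adjusted p values of 1.00 and 0.681. Of the 18 antigen presentation genes, 1 had an unadjusted p under 0.05 against heart BECs and 2 against diaphragm LECs.

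Interferon signalling induces many antigen presentation genes. Whether it had a part in their levels here was not tested. The list of its other targets showed no common direction in the main fit, and its median ranged from -0.32 to 0.27 over the alternatives. Of 25 interferon response genes tested, 13 were higher and 12 lower, with a median of 0.014. Against 3.22% of all genes, 2 of the 25 were lower at an unadjusted p under 0.05. These were Bst2, the antiviral surface protein tetherin, at 511, 599, 555 and 516 TPM in ctrl and 349.9, 426 and 471 TPM in angII+VEGFC, and Isg15, a ubiquitin-like modifier, at 225, 145, 230.2 and 169 TPM in ctrl and 144, 122 and 97.2 TPM in angII+VEGFC. Both lay lower in each combined library than in any control, Isg15 by less than 2 TPM at the closest. Another member of the list, 1 of the 25, lay higher in each combined library than in any control. Over all genes, 2.14% lay lower and 1.82% higher without overlap. Irf8 and Irgm1, which are not in the list, lay lower. The rule named them by rank among genes without overlap, so their lack of overlap belongs to the choice. Irf8, a transcription factor of interferon signalling and myeloid cells, was at 108, 64.4, 77.6 and 69.4 TPM in ctrl and 27.9, 45.3 and 55.5 TPM in angII+VEGFC (log2 fold change -0.99, SE 0.26, limma adjusted p 0.915). Irgm1, an interferon-induced GTPase, was at 169.8, 90.4, 80.9 and 109 TPM in ctrl and 57.9, 44.6 and 60.3 TPM in angII+VEGFC (log2 fold change -1.06, SE 0.29). Both kept an unadjusted p under 0.05 in all 16 alternatives, whereas Bst2 did so in 12 of 16 and Isg15 in 4 of 16.

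Genes that respond to angiotensin II alone were followed into the combined group. In angII against ctrl heart LECs 7 of 26803 genes (0.0261%) passed the adjusted threshold, all higher, with log2 fold changes of 2.84 to 3.50. The 2 contrasts share the 4 control libraries, so the values of the combined group are a description of these 7 genes and no independent test. The 7 were also selected for their rise in angII, so a smaller value in the combined group is no test either. Their log2 fold changes in angII+VEGFC against ctrl ranged from 0.40 to 2.23 with a median of 1.31, all positive and all below those in angII alone. Sums of other cells' markers reached higher levels in the angII libraries. Blood endothelial markers summed to 3863 to 10381 TPM in angII, against 1724 to 3917 TPM in ctrl and 2416 to 2683 TPM in angII+VEGFC. Cardiomyocyte markers summed to 259 to 1484 TPM in angII, against 227 to 552 TPM in ctrl and 242 to 440.1 TPM in angII+VEGFC. Fibroblast markers, which include Ogn and Col1a2, summed to 1183 to 2790 TPM in angII, against 962 to 1975 TPM in ctrl and 1256 to 1818 TPM in angII+VEGFC. The part of such RNA in the 7 genes was not tested. Directly between angII+VEGFC and angII, none of the 7 passed (limma adjusted p 0.385 to 0.615), and neither did any other gene. Of all 26803 genes, 2906 had an unadjusted p under 0.05, 292 higher and 2614 lower in angII+VEGFC. The median log2 fold change over all genes was -0.37 in this contrast, and 28.0% of genes had a positive one. Between 19957 and 25896 genes reached 1 TPM in angII, against 16756 to 18884 in angII+VEGFC.

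By the fitted log2 fold change of angII+VEGFC against angII, at -0.72, Ogn was the member nearest to its level in angII alone. Ogn encodes the matrix proteoglycan osteoglycin. It was at 2.30, 0.0757, 0.872 and 0.412 TPM in ctrl, 21.4, 9.68, 8.94, 12.1 and 12.9 TPM in the angII mice 3, 15, 12, 18 and 14, and 6.51, 7.49 and 7.62 TPM in angII+VEGFC. The combined libraries lay within a narrow band above every control and below every angII library (log2 fold change to ctrl 2.23, SE 0.53, limma adjusted p 0.915). Adprhl1, which is known from heart muscle, was the other of the 7 without overlap, at 0.856, 0.894, 0.0796 and 0.490 TPM in ctrl and 5.26, 1.80 and 4.93 TPM in angII+VEGFC, against 5.78 to 28.0 TPM in angII. Ndufaf6, a complex I assembly factor, was at 0.981, 11.9, 0 and 2.96 TPM in ctrl and 9.59, 10.9 and 14.1 TPM in angII+VEGFC, and control mouse 5 reached the combined level. The angII libraries held 15.4 to 23.4 TPM of Ndufaf6, and its fitted log2 fold change against angII was -1.39. Sybu, which encodes the kinesin adaptor syntabulin, was at 1.37, 0.0963, 0.0759 and 0.0507 TPM in ctrl, 10.7 to 16.0 TPM in angII and 0.579, 5.19 and 2.98 TPM in angII+VEGFC. Ccn5, a secreted matricellular protein, was listed at 0 TPM in 2 controls and reached 4.64 TPM in mouse 11, above all 3 combined libraries at 4.37, 3.78 and 4.53 TPM. Col1a2, a chain of type I collagen, was at 7.54, 9.32, 12.4 and 2.22 TPM in ctrl and 4.78, 17.1 and 11.2 TPM in angII+VEGFC, overlapping widely, while the angII libraries held 35.3 to 92.4 TPM. Hspb7, a small heat shock protein of heart muscle, was at 0.182, 1.37, 0.0513 and 2.48 TPM in ctrl and 3.71, 0.794 and 7.36 TPM in angII+VEGFC, also overlapping.

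Collagen chains lay on both sides of the controls in the combined group. Of 34 collagen chains tested, 20 were higher and 14 lower, with a median of 0.27, and 4 were higher and 1 lower at an unadjusted p under 0.05, where 1.73% and 3.22% of all genes were. The 4 became 1 without mouse 6 of the combined group, 2 without control mouse 1 and 6 without control mouse 9. Col4a1, a chain of the basement membrane collagen, was at 143, 323, 232 and 293 TPM in ctrl and 367, 539 and 327 TPM in angII+VEGFC (log2 fold change 0.73, SE 0.26). Col18a1, the source of endostatin, was at 189, 244, 263 and 262 TPM in ctrl and 351, 338 and 346 TPM in angII+VEGFC (0.59, SE 0.23). In both genes all 3 combined libraries lay above the controls, by less than 5 TPM at the closest for Col4a1. Col1a1, the partner chain of Col1a2, was low in ctrl, at 3.07, 1.73, 4.87 and 2.78 TPM, and stood at 6.46, 9.90 and 7.12 TPM in angII+VEGFC (1.24, SE 0.51), against 7.51 to 30.8 TPM in angII. The chain that lay lower was Col13a1, a transmembrane collagen, at 13.1, 5.58, 18.0 and 5.11 TPM in ctrl and 0, 1.58 and 6.07 TPM in angII+VEGFC, where mouse 8 overlapped the controls.

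Among matrix remodelling genes, 17 of 24 were higher, with a median of 0.35 and 1 higher at an unadjusted p under 0.05. That gene was Mmp2, the gelatinase that cuts type IV collagen, at 12.7, 13.3, 8.42 and 12.2 TPM in ctrl and 27.0, 31.8 and 18.6 TPM in angII+VEGFC (log2 fold change 1.05, SE 0.37). All combined libraries lay above all controls, and the angII libraries held 24.5 to 59.8 TPM. Of the CCN family of matricellular proteins, Ccn2 was at 139, 172, 192 and 174 TPM in ctrl and 220.4, 344 and 314 TPM in angII+VEGFC (0.73, SE 0.24), without overlap. Ccn3 lay the other way, at 29.2, 95.8, 94.0 and 65.0 TPM in ctrl and 15.4, 21.0 and 55.9 TPM in angII+VEGFC (-1.35, SE 0.47), with mouse 8 inside the control range. In the TGF-beta list, 16 of 24 genes were higher, with a median of 0.16. Of the higher ones 2 reached an unadjusted p under 0.05, against 1.73% of all genes. Fibroblasts make many of the same genes. Fibroblast markers summed to 962 to 1975 TPM in ctrl and 1256 to 1818 TPM in angII+VEGFC, so the sum overlapped between the groups, and 8 of its 10 markers were higher, 2 of them (Ogn and Col1a1) at an unadjusted p under 0.05. The part of fibroblast RNA in these differences was not tested beyond those values.

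**Figure D4:**
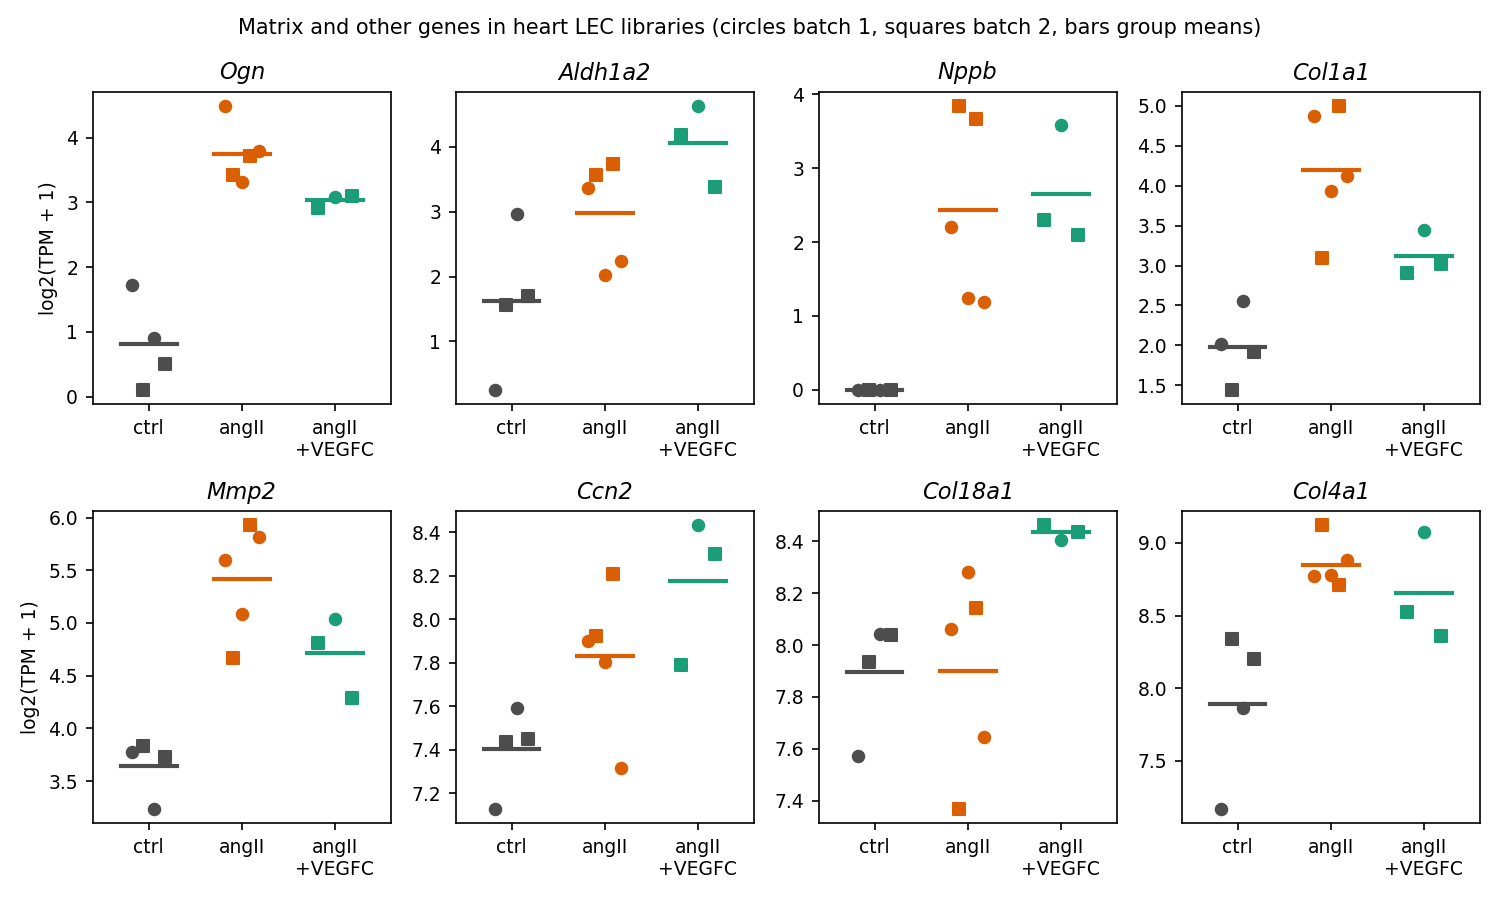
Levels of 8 genes named among those higher with angII+VEGFC, as log2(TPM + 1) on axes that differ between panels, in heart LEC libraries of ctrl (4), angII (5) and angII+VEGFC (3), with bars at group means. The panels show only genes whose angII+VEGFC and ctrl groups did not overlap, so the combined libraries lie above all controls in every panel by choice. For Ogn the combined libraries also lie below all angII libraries.

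Genes of lymphatic identity differed little. Prox1 was at 176, 205, 131 and 193 TPM in ctrl and 176, 179 and 210.5 TPM in angII+VEGFC, with a log2 fold change of 0.091 and a 95% interval of -0.47 to 0.65. Lyve1 was at 1091, 1697, 1077 and 1495 TPM in ctrl and 1534, 1404 and 1560.4 TPM in angII+VEGFC (0.12, interval -0.27 to 0.51). Flt4, the receptor that VEGFCc156s activates, was at 273, 558, 386 and 498 TPM in ctrl and 459.8, 494 and 642 TPM in angII+VEGFC (0.32, interval -0.23 to 0.86). The groups overlapped in all 3 genes, and each interval includes 0. Of the 15 genes of the identity list 10 were higher and 5 lower, with a median of 0.11. At an unadjusted p under 0.05, 1 was higher and 1 lower, against 1.73% and 3.22% of all genes. The higher one was Itga9, the integrin subunit needed for lymphatic valves, at 16.5, 80.3, 26.3 and 118 TPM in ctrl and 117, 51.9 and 128 TPM in angII+VEGFC. Its level went with the batch, with both batch 1 controls at or below 26.3 TPM and both batch 2 controls at or above 80.3 TPM, and the fold change was 1.27 within batch 1 and 0.33 within batch 2. The lower one was Ccl21a, the chemokine that draws dendritic cells into lymphatics, at 19594, 27226, 20379 and 25179.5 TPM in ctrl and 16527, 15082 and 21666 TPM in angII+VEGFC. Mouse 8 overlapped the controls, and Ccl21a has near-identical copies among which reads can be split.

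Genes of lymphatic valves, of vessel tone and of the angiopoietin pathway showed a few higher members. In the valve and flow list 7 of 12 were higher and 3 had an unadjusted p under 0.05, namely Gja4, a gap junction protein of valve cells, Fn1, fibronectin, and Foxc2, the valve transcription factor, against 1.73% of all genes. The 3 became 0 without mouse 6, 1 without control mouse 1 or with the 2 groups fitted alone, and 5 without control mouse 5. Foxc2 was at 51.8, 231, 108 and 194 TPM in ctrl and 229, 209 and 231 TPM in angII+VEGFC, level with control mouse 5. Gja4 was at 169, 258, 233 and 332 TPM in ctrl and 380.4, 390.4 and 283 TPM in angII+VEGFC, and Fn1 at 275, 345, 302 and 371 TPM in ctrl and 464, 700.2 and 296 TPM in angII+VEGFC, with 1 combined library inside the control range in each. In the angiopoietin Tie list, Angpt2, a Tie2 ligand that lymphatics need for maturation, was at 135, 123, 76.4 and 104 TPM in ctrl and 163, 274 and 123 TPM in angII+VEGFC (log2 fold change 0.64, SE 0.27). Svep1, a matrix protein of the same pathway, was at 19.6, 5.40, 3.91 and 7.98 TPM in ctrl and 1.15, 5.70 and 3.10 TPM in angII+VEGFC (-1.27, SE 0.56). Both had overlapping groups. Adm, the peptide adrenomedullin, which stabilises lymphatic junctions, was at 120.2, 195, 172 and 211 TPM in ctrl and 228, 312 and 288 TPM in angII+VEGFC (0.65, SE 0.26), without overlap, and its receptor Calcrl at 101, 244, 63.9 and 141 TPM in ctrl and 206, 388 and 196 TPM in angII+VEGFC (0.92, SE 0.38), with overlap.

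In the list of VEGF ligands and receptors no gene of 13 had an unadjusted p under 0.05, and 8 were higher and 5 lower. Vegfc itself, whose mouse transcript is distinct from the infused human protein, was at 1.17, 2.35, 5.34 and 9.10 TPM in ctrl, 15.7, 31.3, 5.39, 15.3 and 47.7 TPM in angII and 1.43, 7.35 and 6.53 TPM in angII+VEGFC. The combined libraries lay within the range of the controls (log2 fold change 0.18, interval -1.38 to 1.74). Of 9 renin-angiotensin genes tested, 7 were higher, and Ace, the enzyme that makes angiotensin II, had an unadjusted p under 0.05 at 9.61, 12.4, 26.3 and 15.5 TPM in ctrl and 22.6, 36.8 and 21.1 TPM in angII+VEGFC. Control mouse 9 lay inside the combined range. None of these lists had a member past the adjusted threshold.

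Chemokines and cytokines, which LECs use to guide leukocytes, showed no common direction. Of 29 chemokine ligands tested, 17 were higher and 12 lower, with 2 lower at an unadjusted p under 0.05, Ccl21a and Ccl5. Ccl5, a T cell chemokine, was at 7.06, 0.349, 14.1 and 0 TPM in ctrl and listed at 0 TPM in all 3 combined libraries, as it was in control mouse 11. In the same order of mice, T and NK cell markers summed to 48.7, 14.2, 15.0 and 14.3 TPM in ctrl and 2.65, 9.03 and 14.3 TPM in angII+VEGFC. The part of such cells in the Ccl5 levels was not tested. Among the 5 atypical chemokine receptors, which bind chemokines without signalling through G proteins, 4 were higher and Ccrl2 was lower, at 27.2, 7.37, 8.72 and 13.9 TPM in ctrl and 0, 7.57 and 13.9 TPM in angII+VEGFC. In the cytokine and NF-kB list 13 of 24 were higher, 1 of the 24 had an unadjusted p under 0.05, and the median was 0.057. In the leukocyte adhesion list 13 of 16 were higher, with none at an unadjusted p under 0.05.

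Genes of sterol synthesis and of complement and coagulation were mostly higher, with fewer members past an unadjusted p of 0.05 when mouse 6 was left out. Of 18 cholesterol and sterol genes 15 were higher, with a median of 0.49. At an unadjusted p under 0.05, 3 were higher, against 1.73% of all genes. Of these, none remained without mouse 6, and the count was 1 with the 2 groups fitted alone. Among the 3 were Srebf2, the transcription factor that drives the pathway, and Fdps, which makes farnesyl diphosphate. Srebf2 was at 15.7, 28.9, 39.5 and 23.6 TPM in ctrl and 47.8, 50.6 and 30.3 TPM in angII+VEGFC, with mouse 8 inside the control range. Fdps was at 8.02, 36.4, 34.6 and 15.7 TPM in ctrl and 42.4, 55.0 and 35.3 TPM in angII+VEGFC, with mouse 8 inside the control range as well. Of 20 complement and coagulation genes 16 were higher, with a median of 0.29. At an unadjusted p under 0.05, 5 were higher, against 1.73% of all genes, or 1 without mouse 6. The largest fold change was that of C4b, complement component 4B, at 0.0914, 0.330, 10.6 and 10.3 TPM in ctrl and 9.32, 15.5 and 15.7 TPM in angII+VEGFC. Mouse 2 lay inside the control range, and C4b has the near-identical copy C4a. Thbs1, the matricellular protein thrombospondin 1, was at 110.5, 95.2, 79.3 and 125 TPM in ctrl and 156, 347 and 117 TPM in angII+VEGFC, where mouse 8 overlapped.

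Transcripts of the mitochondrial genome, which encode subunits of the respiratory chain, were higher in the combined group in batch 2 and not in batch 1. All 13 were higher in the fit, 11 at an unadjusted p under 0.05, against 1.73% of all genes, and the median log2 fold change was 1.12. None was without overlap between the groups. Within batch 2 the median was 2.13, and within batch 1, with mouse 6 alone in the combined group, it was -0.52. mt-Co1, a subunit of cytochrome c oxidase, was at 3950.2, 2176, 2144 and 1218 TPM in ctrl and 8677, 2914 and 6142 TPM in angII+VEGFC (log2 fold change 1.18, SE 0.38). mt-Nd3, a complex I subunit, was at 924, 492, 1614 and 467 TPM in ctrl and 4119, 973 and 2044 TPM in angII+VEGFC, and mt-Atp6, an ATP synthase subunit, at 2835, 1561, 3241 and 1420.0 TPM in ctrl and 8359, 2289 and 5681 TPM in angII+VEGFC. In each gene mouse 2 was the highest library and mouse 6 lay within the range of the controls. Mouse 2 was also the library with the fewest genes at 1 TPM in its group and the one with the highest macrophage marker sum, and the part of both was not tested. Leaving out mouse 2 lowered the median to 0.52 and the count from 11 to 2, and leaving out control mouse 5 also gave 2. Leaving out mouse 6 raised the median to 1.87, and 8 of the 13, together with the pseudogenes Gm10925, Gm28437, Gm29216 and Gm28661, were then called by limma. Nuclear pseudogenes of this kind copy mitochondrial sequence, and reads may be split between copy and original.

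Nuclear genes of the respiratory chain did not follow. Of 38 tested, 19 were higher and 19 lower, with a median of 0.0027 and none at an unadjusted p under 0.05. Against diaphragm LECs, the interaction was positive for the mitochondrially encoded list with a median of 2.00, and 12 of 13 had an unadjusted p under 0.05, against a background of 5.26%. In diaphragm LECs mt-Co1 was at 2859 ± 1586 TPM in ctrl (SD, n = 4) and 959 ± 420.4 TPM in angII+VEGFC (SD, n = 3), a difference in the other direction. The interaction for mt-Co1 was 2.80 (SE 0.53, limma adjusted p 0.121). Against heart BECs the list's median was 0.99, with 5 of 13 at an unadjusted p under 0.05 and a background of 3.73%.

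**Figure D5:**
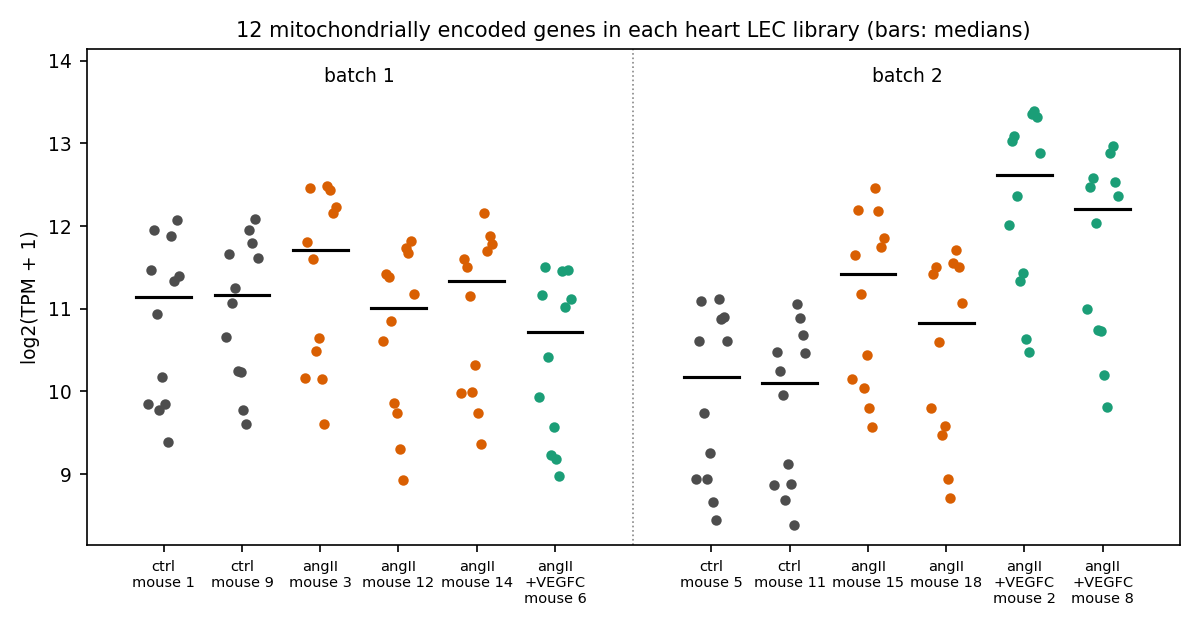
Each point is 1 of 12 mitochondrially encoded genes in 1 heart LEC library, as log2(TPM + 1), with bars at the library's median and the libraries arranged by sequencing batch. The gene mt-Nd4l, listed at 0 TPM in 3 libraries, is left out. The combined libraries of mice 2 and 8 lie highest in batch 2, and that of mouse 6 is the lowest of batch 1.

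Immediate early genes, which cells switch on within minutes of a stimulus and also during tissue digestion, lay lower in the combined group. Of 22 genes 20 were lower, with a median of -0.32, 5 were lower at an unadjusted p under 0.05, and 3 had no overlap between the groups, against 3.22% and 2.14% of all genes. Egr1, a zinc finger transcription factor, was at 3054, 3496, 3130.3 and 3995 TPM in ctrl and 2169.9, 2063 and 2987 TPM in angII+VEGFC (log2 fold change -0.57, SE 0.17, limma adjusted p 0.915). Zfp36, which destabilises cytokine mRNAs, was at 1703, 2060.0, 2068 and 2056 TPM in ctrl and 1438, 1217 and 1516 TPM in angII+VEGFC (-0.52, SE 0.15). Both lay below every control in all 3 combined libraries. Junb, a subunit of the transcription factor AP-1, was at 6768, 7639.5, 6621 and 7862 TPM in ctrl and 6152, 5119.5 and 6827 TPM in angII+VEGFC, where mouse 8 overlapped. The median stayed between -0.40 and -0.20 over the alternatives, but relative to the median of all genes it ranged up to -0.0073, without control mouse 5. The count at an unadjusted p under 0.05 was 2 without mouse 6 and 3 without control mouse 11 or with the 2 groups fitted alone, and 8 without control mouse 1 or mouse 8.

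Single genes outside the lists were named by rank of unadjusted p among genes whose groups did not overlap, so that the lack of overlap belongs to the choice. Aldh1a2, which makes retinoic acid, was at 0.195, 1.94, 6.78 and 2.25 TPM in ctrl, 3.07 to 12.3 TPM in angII and 17.2, 23.7 and 9.39 TPM in angII+VEGFC (log2 fold change 2.52, SE 0.67, limma adjusted p 0.915). It kept an unadjusted p under 0.05 in all 16 alternatives. Nppb, which encodes B-type natriuretic peptide, was listed at 0 TPM in all 4 controls, at 3.61, 13.3, 1.37, 11.7 and 1.28 TPM in angII and at 3.91, 11.0 and 3.27 TPM in angII+VEGFC. The gene is best known from strained heart muscle, and cardiomyocyte markers summed to 227 to 552 TPM in ctrl and 242 to 440.1 TPM in angII+VEGFC. Cbr2, a carbonyl reductase, was likewise listed at 0 TPM in all 4 controls and at 26.2, 1.87 and 7.61 TPM in the combined group. Usp48, a deubiquitinase, was at 7.70, 15.5, 7.59 and 21.6 TPM in ctrl and 40.2, 35.9 and 25.3 TPM in angII+VEGFC, and Cog8, a subunit of the Golgi tethering complex, at 7.75, 18.4, 18.2 and 19.8 TPM in ctrl and 30.4, 34.7 and 33.4 TPM in angII+VEGFC. Among the lower genes, Fzd5, a Wnt receptor, was at 14.2, 6.95, 11.5 and 13.4 TPM in ctrl and 1.30, 2.13 and 4.15 TPM in angII+VEGFC (log2 fold change -1.94, SE 0.51). Wdr53 was at 12.6, 15.3, 27.8 and 21.1 TPM in ctrl and 3.61, 0 and 8.39 TPM in angII+VEGFC, Fam110b at 25.0, 6.21, 16.4 and 7.10 TPM in ctrl and 0.470, 5.51 and 3.57 TPM in angII+VEGFC, and Cntrob, a centriole duplication protein, at 9.35, 5.99, 7.91 and 5.58 TPM in ctrl and 0.0560, 1.15 and 2.38 TPM in angII+VEGFC. The other protein-coding genes named by rank, Ppp1r3b, Sh3bgr, Chac2, Mtg1 and Lrrc51, lay higher, with log2 fold changes of 2.02 to 2.32. Snord13, a small nucleolar RNA, was listed at 0 TPM in all 4 controls and at 10.2, 14.6 and 8.54 TPM in angII+VEGFC. The pseudogenes Vmn1r-ps136 and Rps6-ps1 lay lower, with log2 fold changes of -2.49 and -2.21, and share sequence with other genes.

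The remaining lists gave at most 3 members at an unadjusted p under 0.05 in either direction. In the nitric oxide and endothelin, sphingosine 1-phosphate, glycolysis, fatty acid, unfolded protein, corticosteroid, circadian, IGF and solute transport lists there was none. Of 28 cell cycle genes, 18 were lower, 1 of them at an unadjusted p under 0.05, and the median was -0.091. The cell cycle list split by batch, with a median of 1.08 within batch 1 and -0.59 within batch 2. Of 18 MYC growth genes, 9 were higher and 9 lower. In the Notch list 11 of 16 were higher and 1 was lower at an unadjusted p under 0.05, and in the laminin and integrin list 18 of 24 were higher, 3 of them at an unadjusted p under 0.05, against 1.73% of all genes. The 3 became 0 without control mouse 1, and 1 with the 2 groups fitted alone or with the number of genes at 1 TPM as a covariate.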

How the data were processed

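Sorted cells of Prox1-eGFP mouse heart and diaphragm were converted to cDNA with the Smart-Seq kit and to libraries with Nextera XT. Per the labels and the methods of the study, the authors aligned reads to GRCm38 with STAR 2.5.3a, quantified Ensembl release 95 transcripts with Salmon 0.12.0 and deposited TPM (scaled for transcript length and library size) per gene for 48 libraries. TPM keeps no depth, so no read counts, counting intervals or count tests could be had. Symbols and positions came from GENCODE M21 for 54723 of 54752 genes.

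Genes that reached 1 TPM in 3 or more of the 12 heart LEC libraries were tested with limma 3.58.1 (R 4.3.3) on log2(TPM + 1), with a variance trend, group, age and sequencing batch in the model and Benjamini-Hochberg adjustment. The study's own analysis used a count test, for which limma stands in here. Interactions were fitted over the 36 endothelial libraries in the same way. Libraries of one mouse share its number, and their deviations from group means correlated by 0.0580 on average (-0.137 to 0.250, 21 pairs), against -0.0219 for 54 pairs of different mice. Sums per library were compared by exact permutation in Python 3.11.15 (scipy 1.17.1). The fits were tested on simulated data first. Each library is 1 mouse.

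The members and the 51 gene lists were chosen with earlier results of these data known. Genes were named by rule. Up to 12 non-overlapping genes per direction with the smallest p, a symbol and a mean of 5 TPM in the higher group were taken, with the 3 members of smallest p in each list, Prox1, Lyve1 and Flt4, and up to 5 genes per interaction. Vegfc, H2-Eb1, Cd74, Ciita, Nlrc5, H2-K1, H2-D1, B2m, Psmb8, and the 7 genes called in angII against ctrl were added after their values were seen. Of 756 listed symbols 755 matched. The alternatives were another pseudocount, 2 other filters, other covariates, quantile normalization, library weights, the 2 groups alone, a replicate block in the interactions, and each of the 7 libraries left out in turn. Some genes are not reported here.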

Additional observations from a re-analysis of the deposited data

Results flagged for a closer look

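In 8 of the 152 groups examined (76 genes in ctrl and in angII heart LECs), the highest or lowest library lay farther from its neighbour than Dixon's 95% critical value allows. Chance flags about 1 in 20 groups, and the 3 libraries of angII+VEGFC are too few for the test. In ctrl, mouse 1 had the lowest Cog8, at 7.75 TPM, the lowest Zfp36, at 1703 TPM, and the highest Sybu, at 1.37 TPM. In ctrl, mouse 11 was the only library with C1qc above 0, at 2.34 TPM, and mouse 5 the only one with Ppp1r3b above 0, at 0.956 TPM. In angII, mouse 15 had the lowest H2-DMb1, at 0.486 TPM, and the lowest C4b, at 0.0559 TPM, and mouse 14 had the lowest Chac2, at 3.15 TPM. Control mouse 1, which lay apart in Cog8, Zfp36 and Sybu, was also the control library with the most genes at 1 TPM.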

How the results depend on the processing

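No gene was called between angII+VEGFC and ctrl in the main comparison or in any of the 9 alternatives that keep all 7 libraries. Leaving out 1 library gave 0 to 12 called genes, the 12 without mouse 6. Genes at an unadjusted p under 0.05 numbered 1325, against 616 with a mean of 5 TPM or more, 2222 with 1 residual component and 579 with the 2 groups fitted alone, and 757 (without mouse 6) to 2638 (without control mouse 5) with 1 library left out. Fewer genes were tested with the stricter filter (11437) and with the 2 groups alone (19820), and for the other counts the cause was not tested. The interaction against diaphragm LECs gave 0 called genes, and 1, Gm45437, with a pseudocount of 0.1 TPM. With the mouse as a replicate block, both interactions again gave 0 called genes, with 1798 genes against heart BECs and 2470 against diaphragm LECs at an unadjusted p under 0.05, and the pairing changed no call. Of the 76 genes examined, 72 kept the sign of their fold change in every alternative in which they were tested, the exceptions being Prox1, Vegfc, Ciita and mt-Nd4l, and mt-Nd1, mt-Nd3 and mt-Atp6 were past the adjusted threshold without mouse 6. The median of all genes moved from -0.23 without control mouse 5 to 0.0059 with quantile normalization. Fold changes of genes near 1 TPM depend on the pseudocount, and the number of reads behind them is unknown.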
